A study of Mus musculus with 8 samples.

Results

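The 57 genes described here encode splicing factors and heterogeneous nuclear ribonucleoproteins (hnRNPs). They were taken from the 21887 protein-coding genes of chromosomes 1 to 19, X and Y in the RefSeq table of mouse build mm10 (GRCm38) by symbol alone: the Srsf, Tra2 and Srrm genes (17 serine/arginine-rich, or SR, and SR-related proteins), the Hnrnp genes (21), and the Pcbp (4), Ptbp (3), Rbfox (3), Mbnl (3) and Celf (6) genes. One of the 21, Hnrnpa1l2-ps2, is annotated as protein-coding under a pseudogene-style symbol. Of the 57 genes, 50 have at least 1 transcription start listed in RefSeq's promoter table. The other 7 are Ptbp3, Pcbp4, Pcbp3, Rbfox2, Hnrnpll, Celf4 and Hnrnpul2.

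Binding of ZFP281, a transcription factor with zinc fingers that recognises G-rich DNA, was mapped by chromatin immunoprecipitation and sequencing (ChIP-seq) in spheres of FvB mice carrying MMTV-HER2/Neu, a transgene that drives the HER2/Neu oncogene from a mammary tumour virus promoter. Primary tumour (PT) spheres came from animals of over 20 weeks that bore a tumour, with breast tumor as the tissue label. Early lesion (EL) spheres came from animals of 14 to 18 weeks in which no tumour could be felt, with the tissue label mammary lung. Both groups share the transgene, the strain, the label of breast cancer cells, the antibody, and a culture of 7 days in mammosphere medium without attachment. Each group has 3 ZFP281 libraries, called biological replicates in the labels, and 1 input library that was not analysed here. The labels do not say whether animals were pooled, so the spread between libraries may be in part technical. In PT replicates 1, 2 and 3 the lists held 2897, 4030 and 6033 summits, and in EL replicates 1, 2 and 3 they held 8588, 15770 and 7055. A summit is the position at which a binding peak is highest, and its score ranks it within its list. Read depth is unknown, so list length could not be scaled by it. Counts of bound genes at boundaries, at starts and inside genes were repeated in lists of equal length. For such lists only the 2897 summits with the highest scores were kept from every library. Ranks were compared between groups in lists of equal length. Score percentiles, distances from starts, summits per megabase, motif shares and the joint count by boundary or start come from full lists alone. Summits show where the factor lay and not whether a gene was expressed, so the cell label could not be checked by expression. Of the epithelial genes, Cdh1 had a boundary summit in 3 PT and 3 EL libraries, Krt18 in 1 PT and 0 EL libraries, and Krt8 and Epcam in none. Of the mesenchymal genes, Vim and Col1a1 had one in 0 PT and 3 EL libraries and Pdgfra in 1 PT and 3 EL libraries, and the part of other cell types in the results was not tested.

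SR proteins and hnRNPs bind nascent RNA and set which exons the spliceosome joins. SR proteins are best known for binding exonic enhancers and promoting exon inclusion, whereas many hnRNPs, PTB proteins included, can silence exons or act on either side depending on where they bind. RBFOX, MBNL and CELF proteins are regulators with strong tissue preferences, studied mostly in brain and muscle, and poly(C)-binding proteins also act in RNA stability and translation.

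The sequences below show what lies under the summits at 6 members. They are stretches of RefSeq promoter windows (GRCm38.p6; from 250 bases before to 50 bases after a listed start) that hold every summit of the region, with up to 50 bases on either side. Letters are written 5′ to 3′ on the strand named, and capitals mark each match to CCTCCCCC or its reverse complement GGGGGAGG, the core of the G-rich motif known for ZFP281. At Ptbp1 (chr10:79854366-79854481, plus strand) and Hnrnpul1 (chr7:25754724-25754888, minus strand) summits of all 6 libraries sat at a listed start of the gene itself. At Srsf2 the summits of all 6 libraries fell in the promoter window of the neighbouring gene Mfsd11 (chr11:116853543-116853710, plus strand), and that window is shown. Hnrnph3 (chr10:63023861-63024055, minus strand) and Hnrnpf (chr6:117917075-117917282, plus strand) are shown as starts bound in all 6 libraries without the motif in the stretch. Hnrnpu (chr1:178337807-178337941, minus strand) is shown because its start carried summits in the 3 PT libraries and in no EL library.
Ptbp1: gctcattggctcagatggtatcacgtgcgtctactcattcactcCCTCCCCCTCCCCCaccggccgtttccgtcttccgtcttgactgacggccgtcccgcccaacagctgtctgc
Hnrnpul1: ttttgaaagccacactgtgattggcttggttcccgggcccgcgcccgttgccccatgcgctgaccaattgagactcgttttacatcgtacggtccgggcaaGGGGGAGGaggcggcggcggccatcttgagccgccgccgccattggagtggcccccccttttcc
Srsf2 (Mfsd11 window): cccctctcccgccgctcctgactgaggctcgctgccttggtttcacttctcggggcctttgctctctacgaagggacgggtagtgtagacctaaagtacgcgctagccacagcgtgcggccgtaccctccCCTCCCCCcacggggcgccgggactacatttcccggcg
Hnrnph3: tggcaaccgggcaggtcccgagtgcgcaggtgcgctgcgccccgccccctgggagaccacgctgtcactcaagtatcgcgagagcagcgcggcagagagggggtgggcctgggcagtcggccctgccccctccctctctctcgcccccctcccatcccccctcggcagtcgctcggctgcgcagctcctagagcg
Hnrnpf: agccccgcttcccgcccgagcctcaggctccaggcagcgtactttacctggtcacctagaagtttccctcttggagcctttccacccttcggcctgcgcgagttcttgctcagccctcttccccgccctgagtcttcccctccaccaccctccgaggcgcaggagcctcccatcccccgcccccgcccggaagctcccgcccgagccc
Hnrnpu: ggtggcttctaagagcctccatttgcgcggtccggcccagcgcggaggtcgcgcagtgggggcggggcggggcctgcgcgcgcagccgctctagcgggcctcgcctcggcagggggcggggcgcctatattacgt
The Ptbp1 stretch holds 2 overlapping matches, and its 6 summits lay between 3 and 47 bp from the middle of the first. The 6 summits at Hnrnpul1 lay between 2 and 54 bp from the middle of the single match, and those at Srsf2 between 16 and 83 bp. The stretches at Hnrnph3, Hnrnpf and Hnrnpu hold no match and have a GC content of 73.3%, 68.8% and 74.8%.

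Splicing genes carried ZFP281 summits near a gene boundary more often than protein-coding genes in general, in every PT and every EL library. Within 1 kb of either boundary, 14, 19 and 21 members had a summit in PT replicates 1, 2 and 3, and 20, 29 and 18 in EL replicates 1, 2 and 3. The groups overlapped, and EL replicate 2, the longest list, stood highest. The means were 31.6% ± 6.33 of members in PT and 39.2% ± 10.3 in EL (SD, n = 3 each), beside 8.14% ± 2.75 of all genes in PT and 15.3% ± 4.82 in EL. The members' share was 4.27, 4.43 and 3.31 times that of all genes in the PT libraries, against 2.60, 2.45 and 2.70 times in the EL libraries, so this ratio was higher in each PT library.

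**Figure D1:**
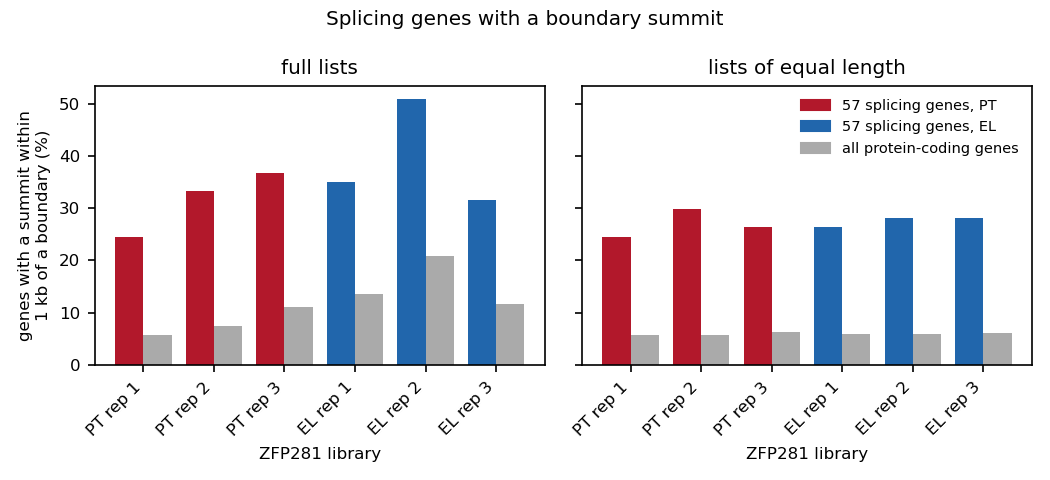
Percent of the 57 splicing genes (coloured bars; red PT, blue EL) and of all protein-coding genes (grey bars) with a ZFP281 summit within 1 kb of a gene boundary, per library, in full lists (left) and in lists of equal length (right). The coloured bar stands above the grey bar in each library, and at equal length the 6 coloured bars lie between 24.6% and 29.8%.

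The separation of that ratio went with list length. In lists of equal length 14, 17 and 15 members were bound in the PT libraries and 15, 16 and 16 in the EL libraries. Those are means of 15.3 ± 1.53 in PT and 15.7 ± 0.577 in EL (SD, n = 3 each), or 26.9% and 27.5% of the members, beside 5.91% and 6.0% of all genes. The ratio to all genes was then 4.24 to 5.19 in PT and 4.42 to 4.71 in EL, and the groups overlapped. The members bound at a boundary also scored high within each full list: their median percentile, where 100 is the highest score, was 88.8, 85.2 and 89.5 in the PT libraries and 93.2, 89.1 and 94.4 in the EL libraries. For all genes bound at a boundary it was 57.1, 57.1 and 58.8 in the PT libraries and 60.7, 62.0 and 60.5 in the EL libraries.

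A core of splicing genes was bound in tumour and early lesion spheres alike. A boundary summit was present in all 6 libraries at 12 members (21.1%, beside 4.39% of all genes): Pcbp1, Pcbp2, Pcbp4, Hnrnpa2b1, Hnrnpa3, Hnrnpab, Hnrnph3, Hnrnpl, Hnrnpr, Ptbp1, Srsf2 and Srsf10. No member was bound at a boundary in all PT libraries and no EL library, a class that holds 0.0457% of all genes, and none in all EL libraries and no PT library, a class that holds 1.94%. At least 2 PT libraries bound 17 members (29.8%, beside 7.46% of all genes), and at least 2 EL libraries bound 21 (36.8%, beside 14.2%). In at least 1 library a boundary summit was found at 31 members (54.4%, beside 23.1%). In lists of equal length 11 of the 12 members stayed in all 6 libraries (19.3%, beside 2.99% of all genes), Pcbp4 being the exception. The PT-only class then held 0 members (0.338% of all genes) and the EL-only class 0 (0.379%).

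Many further members were bound at a start that lies inside the annotated gene. RefSeq gene spans begin at the outermost transcript, so a start in common use can lie over 1 kb from the boundary. Counted within 1 kb of a listed start, 21, 26 and 30 of the 50 members with such a start had a summit in PT replicates 1, 2 and 3, and 27, 35 and 26 in EL replicates 1, 2 and 3. That is 51.3% ± 9.02 in PT and 58.7% ± 9.87 in EL (SD, n = 3 each), beside 8.75% and 16.1% of the 17492 genes with a listed start. The groups overlapped. In all 6 libraries 20 of the 50 members (40.0%) had a start summit, beside 5.0% of all genes, and 18 (36.0%) in lists of equal length, beside 3.54%. By boundary or start together, 21 of the 57 members (36.8%) were bound in all 6 libraries, beside 5.17% of all genes. This joint count was added after the data had been seen.

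**Figure D2:**
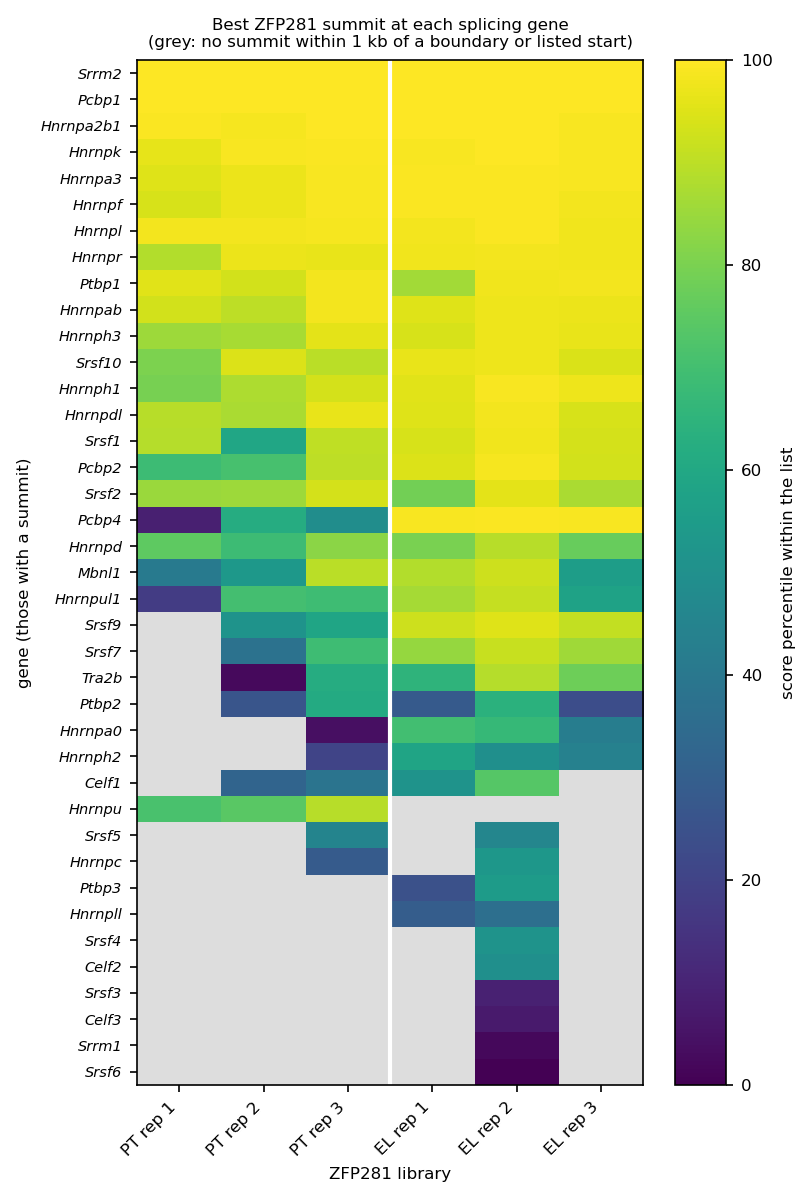
Score percentile (colour; 100 is the highest score of the list) of the best ZFP281 summit within 1 kb of a gene boundary or listed start, for the 39 splicing genes with such a summit (rows) in each of the 6 libraries (columns, PT left of EL); grey means no such summit. The upper 21 rows are filled in all 6 libraries, Pcbp4 is darker in the PT columns, and the Hnrnpu row is filled in the PT columns alone.

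By family, the count in all 6 libraries at a boundary or start was 12 of 21 hnRNP genes, 4 of 17 SR and SR-related genes, 3 of 4 Pcbp genes, 1 of 3 Ptbp genes and 1 of 3 Mbnl genes. It was 0 of 3 Rbfox genes and 0 of 6 Celf genes. Members without a listed start (Pcbp3, Pcbp4, Ptbp3, Rbfox2, Celf4, Hnrnpll and Hnrnpul2) could be counted by boundary alone, so families are not on equal terms. Among all genes 5.17% were in this class of all 6 libraries, and no such share is given for the classes that follow. A further 8 members were bound at a boundary or start in 3 to 5 libraries, namely Hnrnpu, Hnrnpa0, Hnrnph2, Srsf7, Srsf9, Tra2b, Ptbp2 and Celf1. Another 10 were bound in 1 or 2 libraries, and for 6 of these, Srsf3, Srsf4, Srsf6, Srrm1, Celf2 and Celf3, the library was EL replicate 2. The other 4 were Srsf5, Hnrnpc, Ptbp3 and Hnrnpll. Of the remaining 18 members, 10 had a summit elsewhere in the gene in at least 1 library. In no library did a summit fall in or within 1 kb of the other 8, which were Srsf11, Srsf12, Hnrnpa1, Hnrnpa1l2-ps2, Hnrnpm, Celf5, Celf6 and Mbnl3.

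In the accounts of single genes, a percentile refers to the full list of its library, whose lengths differ. A rank counts from 1 for the highest score, and ranks up to the shared length are the same in full and equal lists. Among the poly(C)-binding protein genes, Pcbp1, a gene without introns that encodes an RNA-binding protein also known as an iron chaperone, had some of the highest-ranked summits of any list. Its region (chr6:86526637-86526668, mm10) lay outside the gene, 463 bp from the upper boundary where its listed start lies. The summit ranked 3, 6 and 3 in PT replicates 1, 2 and 3, and 18, 31 and 18 in EL replicates 1, 2 and 3. Each PT rank was higher than each EL rank, although the percentile was at least 99.8 in every library. The region of Pcbp2, whose protein acts in RNA stability and translation, lay 574 bp from the lower boundary (chr15:102470994-102471054) with ranks 903, 1176 and 611 in the PT libraries and 442, 207 and 492 in the EL libraries. There the EL ranks were the higher ones, without overlap.

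Pcbp4, a family member reported as a p53 target, showed the widest gap in median percentile among the 12 members with a boundary summit in all 6 libraries. Its best summit had a percentile of 8.97, 62.1 and 49.0 in PT replicates 1, 2 and 3, against 99.1, 99.6 and 99.1 in EL replicates 1, 2 and 3. All 3 EL values lay above all PT values. The merged region (chr9:106452972-106453290), within 1 kb of Abhd14b as well, joined summits at unlike positions. PT summits lay 120, 308 and 152 bp from the lower boundary, and EL summits 10, 29 and 52 bp from it. Pcbp3, the fourth gene, had no boundary summit in any library.

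Among SR and SR-related genes, the strongest summit belonged to Srrm2, which encodes a large scaffold protein of nuclear speckles. Its region (chr17:23803497-23803534) lay 290 bp downstream of a listed start and 12988 bp from the lower gene boundary. The summit ranked 7, 7 and 2 in the PT libraries and 8, 13 and 6 in the EL libraries, and the groups overlapped. Srsf10, a splicing factor that can act as a repressor, was bound 30 bp outside its lower boundary (chr4:135855672-135855773) at percentiles of 80.4, 94.8 and 89.5 in PT and 96.8, 97.5 and 94.4 in EL, which overlapped. Srsf1, an SR protein gene known as a proto-oncogene, had its region 265 bp downstream of its start (chr11:88047580-88047696) at 88.7, 59.3 and 90.5 in PT, against 94.0, 97.8 and 93.5 in EL. At Srsf1 the EL percentiles were all higher than the PT ones, with PT replicate 2 the lowest, whereas its ranks of 329, 1638 and 572 in PT and 515, 341 and 459 in EL overlapped.

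Srsf2, which encodes the speckle protein SC35, was bound 49 bp from its upper boundary (chr11:116853593-116853660) at 85.0, 85.2 and 93.6 in PT and 78.7, 96.0 and 87.4 in EL. These percentiles overlapped, while each PT rank (436, 599 and 385) was higher than each EL rank (1827, 636 and 886). Srsf9 and Srsf7, whose products bind exonic enhancers and, for Srsf7, messenger RNA bound for export, lacked a summit in PT replicate 1. Srsf9 stood at 51.5 and 58.8 in PT replicates 2 and 3, against 92.4, 95.1 and 91.0 in EL replicates 1, 2 and 3. Srsf7, whose region also lies within 1 kb of Gemin6, stood at 37.5 and 68.8 in PT replicates 2 and 3, against 84.3, 91.7 and 85.6 in the EL libraries. At both genes the EL libraries were higher without overlap. Tra2b, an activator of exons with purine-rich enhancers, was bound in 2 PT libraries at 2.68 and 61.9 and in 3 EL libraries at 64.9, 88.9 and 77.9. Its ranks of 3923 and 2299 in PT replicates 2 and 3 and of 3017, 1750 and 1557 in EL overlapped.

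Among hnRNP genes, Hnrnpa2b1, whose product acts in splicing and RNA transport, was bound 717 bp from its upper boundary in a region (chr6:51469269-51469394) that also lies within 1 kb of the chromatin gene Cbx3. Its ranks of 18, 61 and 9 in PT and 26, 15 and 78 in EL overlapped. Hnrnpa3, a close relative, ranked 145, 116 and 66 in PT and 32, 62 and 60 in EL (chr2:75659647-75659712), so each EL rank was higher. Hnrnpk, a poly(C)-binding protein with roles in transcription, had summits within 1 kb of its start in all 6 libraries, next to Rmi1. In PT replicates 2 and 3 they ranked 39 and 29, and in EL replicates 1, 2 and 3 they ranked 79, 48 and 70, all in 1 region (chr13:58401675-58401959). The summit of PT replicate 1 lay outside that region, at position 58402546, and ranked 115.

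The relatives Hnrnpf, Hnrnph1 and Hnrnph3 encode proteins that bind runs of G in RNA. Hnrnpf was bound just upstream of a listed start (chr6:117917125-117917232) at ranks of 175, 118 and 47 in PT and 57, 82 and 119 in EL. Hnrnph1 was bound in the same way (chr11:50377334-50377454) at ranks of 592, 499 and 379 in PT and 397, 178 and 191 in EL, and Hnrnph3 (chr10:63023911-63024005), which is shared with Pbld2, at 427, 529 and 245 in PT and 511, 392 and 240 in EL. The PT and EL ranks overlapped at each of the 3 genes. The fourth gene of this group, Hnrnph2 on the X chromosome, was bound in PT replicate 3 at a percentile of 20.5 and in EL replicates 1, 2 and 3 at 58.5, 49.9 and 43.8, in a region shared with Gla. Its ranks of 4805 in PT replicate 3 and of 3653, 8070 and 4056 in EL overlapped.

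Hnrnpl, whose product binds CA repeats, had 2 regions found in all 6 libraries. The first, 541 bp from the lower boundary (chr7:28809038-28809136), ranked 309, 327 and 235 in PT and 252, 268 and 394 in EL. The second, 397 bp downstream of the listed start (chr7:28811257-28811317), ranked 53, 70 and 88 in PT and 157, 78 and 163 in EL. The second region ranked higher than the first in every library. Hnrnpr, an RNA-binding protein related to SYNCRIP, was bound 105 bp from its boundary and start at 88.3, 97.2 and 96.6 in PT and 97.8, 98.1 and 98.0 in EL (percentiles), and each EL value was higher, whereas its ranks of 344, 112 and 209 in PT and 186, 293 and 144 in EL overlapped. Hnrnpab was bound 634 bp from its boundary at 93.2, 90.0 and 98.2 in PT and 95.2, 97.4 and 97.2 in EL, which overlapped.

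Hnrnpd, known as AUF1 and a regulator of AU-rich messenger RNAs, and its relative Hnrnpdl were both bound in all 6 libraries within 1 kb of the listed start. At Hnrnpd (chr5:99978125-99978440) the percentiles were 75.3, 68.4 and 82.7 in PT and 79.7, 89.1 and 76.9 in EL, and at Hnrnpdl (chr5:100038381-100038468) they were 89.1, 87.3 and 96.6 in PT and 95.1, 98.1 and 93.9 in EL. Both pairs of groups overlapped by percentile. Within 1 kb of the Hnrnpd region also lies 4930524J08Rik, and within 1 kb of the Hnrnpdl region lies Enoph1. The Hnrnpd region bears on the boundary rule: the EL replicate 1 summit lay 1005 bp from the boundary, just outside the window, and the PT replicate 3 summit 901 bp from it, just inside. Hnrnpul1, related to Hnrnpu, was bound at its start at 17.6, 70.0 and 69.0 in PT and 86.4, 91.3 and 57.7 in EL, with the groups overlapping. Hnrnpa0, a regulator of inflammatory messenger RNAs, was bound in PT replicate 3 at 4.12 and in EL replicates 1, 2 and 3 at 69.9, 67.1 and 42.2.

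Hnrnpu, which encodes scaffold attachment factor A, a protein that binds RNA and chromatin, was the 1 member whose start was bound in every PT and no EL library. That class holds 0.0343% of the genes with a listed start, 6 genes in all. The PT summits (chr1:178337857-178337891) lay between -76 and -42 bp from the start and had percentiles of 71.3, 74.3 and 89.2 in PT replicates 1, 2 and 3. No EL list held a summit within 1 kb of that start. A second region of Hnrnpu, 1256 bp downstream of the start (chr1:178336543-178336576), was found in all 6 libraries at ranks of 47, 50 and 39 in PT and 54, 22 and 34 in EL. The start region sat at the edge of the boundary window, with distances of 1034, 1000 and 1002 bp from the upper boundary in PT replicates 1, 2 and 3, which is why it entered the boundary count in PT replicate 2 alone. At equal length Hnrnpu was again the 1 member in the PT-only class by start, beside 0.274% of genes.

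Ptbp1, the broadly expressed polypyrimidine tract-binding protein, was bound 6 bp from its start at percentiles of 95.4, 93.0 and 98.4 in PT and 86.2, 97.9 and 98.1 in EL, with EL replicate 1 the lowest. Its neural relative Ptbp2 was bound 425 bp downstream of its start in 2 PT libraries, at 26.5 and 61.0, and in 3 EL libraries, at 28.5, 64.0 and 23.7. Mbnl1, a regulator of developmental splicing in muscle, was bound 50 bp downstream of an internal start (chr3:60501198-60501261) at 40.9, 53.3 and 89.5 in PT and 88.5, 92.3 and 55.8 in EL. Celf1, which binds GU-rich RNA, was bound 731 bp downstream of its start. Its percentiles there were 32.3 and 38.5 in PT replicates 2 and 3, and 51.4 and 73.5 in EL replicates 1 and 2. By rank the Celf1 summits were higher in PT, with 2730 and 3730 against 4169 and 4181 in EL. At equal length 1 PT and 0 EL libraries kept a Celf1 boundary summit. Of these 4 genes, Ptbp1, Ptbp2 and Mbnl1 had overlapping percentiles, and at Celf1 1 library of each group had no summit. At Ptbp2 the ranks of 2965 and 2356 in PT replicates 2 and 3 were higher than the EL ranks of 6138, 5684 and 5406. PT replicate 1 had no Ptbp2 summit. At equal length the Ptbp2 start kept a summit in 1 PT and 0 EL libraries.

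At starts of the members, summits lay downstream more often than upstream. Of the 29 regions found in at least 3 libraries within 1 kb of a listed start, 21 lay downstream and 8 upstream, at a median of 265 bp. Per library, 57.1%, 61.5% and 70.0% of bound members had their nearest summit downstream in the PT libraries and 77.8%, 71.4% and 73.1% in the EL libraries. Among all genes these shares were 46.5%, 49.7% and 49.2% in the PT libraries and 51.7%, 52.3% and 51.1% in the EL libraries. The median position for all genes lay between -16 and 16 bp in the 6 libraries, and for the members between 90 and 307 bp. Of the 29 regions, 8 also lie within 1 kb of a boundary or listed start of another protein-coding gene, the Srsf2 region among them, so they cannot be given to the splicing gene alone.

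**Figure D3:**
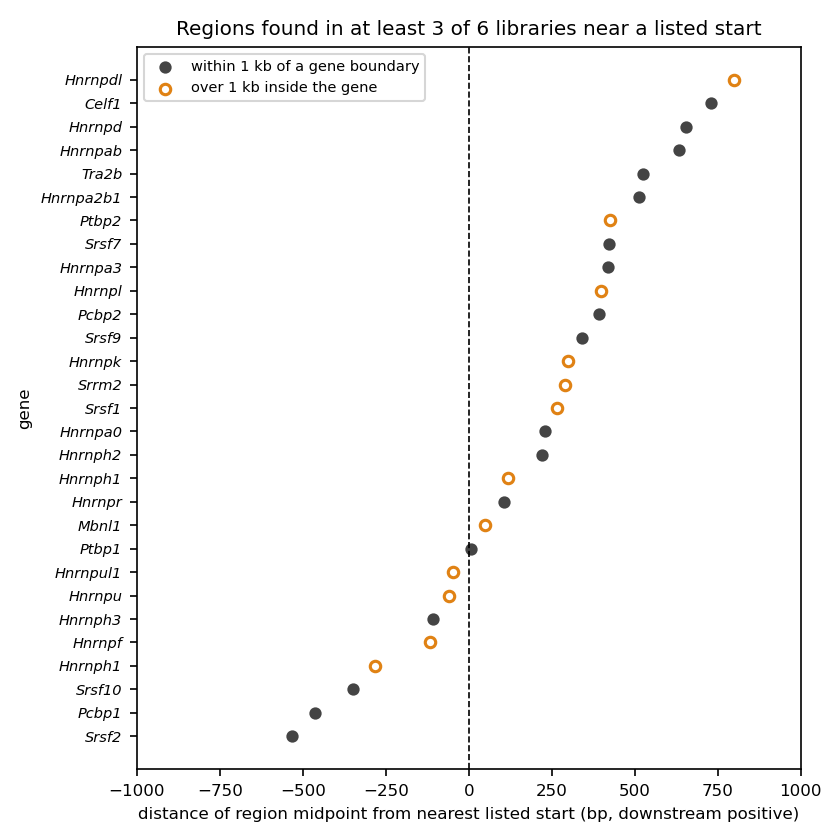
Distance in bp of each region's midpoint from the nearest listed start (downstream positive) for the 29 regions found in at least 3 of 6 libraries; filled points lie within 1 kb of a gene boundary and open points over 1 kb inside the gene. The midpoints spread from Srsf2 upstream to Hnrnpdl downstream, 21 of 29 lie to the right of the start, and 12 points are open.

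Ranks compared the groups gene by gene. In lists of equal length 20 members had a boundary summit in at least 1 library, and a gene with none was placed after the last rank. At 3 members each PT rank was higher than each EL rank (Pcbp1, Srsf2 and Hnrnpd), beside 9.27% of the 2189 genes compared. At 5 members each EL rank was higher (Pcbp2, Pcbp4, Hnrnpa3, Srsf7 and Srsf9), beside 12.1% of genes. For each of these 8 genes the two-sided exact permutation p was 0.1, the smallest that 3 against 3 libraries can give, with an adjusted p of 0.469 over all 2189 genes. No gene could reach an unadjusted p under 0.05 in this design, and 0 did. The other 12 members had overlapping ranks. For Hnrnpd, the EL replicate 1 summit fell outside the window, yet counted by start the PT ranks of 716, 1275 and 1047 were still higher than the EL ranks of 1758, 1727 and 1640.

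**Figure D4:**
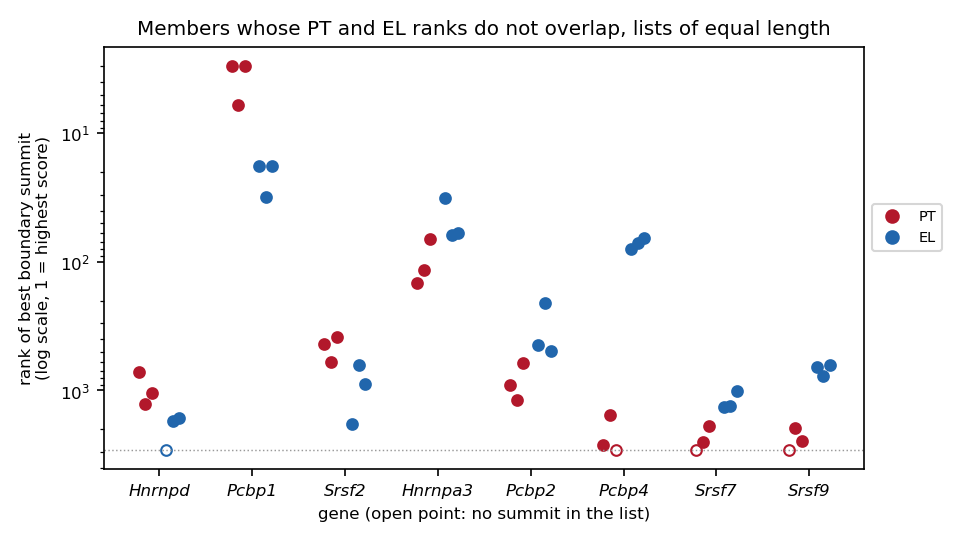
Rank of the best boundary summit (log scale, 1 at the top is the highest score) in lists of equal length for the 8 splicing genes whose PT points (red) and EL points (blue) do not overlap; open points on the dotted line had no summit in the list. Pcbp1, Srsf2 and Hnrnpd have the PT points above, and Pcbp4 shows the widest gap, with EL ranks of 65 to 80.

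Inside the genes, over 1 kb from both boundaries, 11, 15 and 16 members had a summit in PT replicates 1, 2 and 3, and 21, 26 and 19 in EL replicates 1, 2 and 3. The means were 14.0 ± 2.65 in PT and 22.0 ± 3.61 in EL (SD, n = 3 each), and the groups did not overlap. Among all genes the shares were 6.12% in PT and 12.8% in EL. At equal length the members' means were 12.0 ± 1.0 in both groups. In all 6 libraries 10 members had an interior summit (17.5%, beside 2.68% of all genes), and 7 at equal length (beside 1.59%). These counts were largely made of internal starts: 8 of the 10, Mbnl1, Hnrnpdl, Hnrnpf, Hnrnpul1, Hnrnpl, Hnrnph1, Srsf1 and Srrm2, left the class once summits within 1 kb of any listed start were set aside. Hnrnpu and Rbfox3 remained (3.51%, beside 1.99% of all genes).

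Away from boundaries and listed starts, 3, 5 and 7 members had a summit in the PT libraries and 11, 18 and 10 in the EL libraries. Members without a listed start were judged by boundaries alone in these counts. Among all genes the shares were 3.50%, 4.82% and 6.69% in the PT libraries and 9.44%, 15.6% and 7.88% in the EL libraries. At equal length the counts were 3, 3 and 3 in PT and 3, 3 and 4 in EL, or 5.26% to 7.02% of members, beside 3.22% to 3.63% of all genes. Per megabase of gene interior the members held 2.62, 3.22 and 4.63 summits in the PT libraries and 5.43, 10.9 and 5.03 in the EL libraries, listed starts included. For all genes the density was 1.12, 1.66 and 2.39 in the PT libraries and 3.89, 7.05 and 3.01 in the EL libraries. Interior summits in every EL and no PT library occurred at 5 members (8.77%, beside 2.54% of all genes), namely Celf1, Celf2, Srrm4, Tra2a and Rbfox2. In lists of equal length 0 members were in this class (0.681% of all genes).

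The Rbfox, Mbnl and Celf genes that were bound had their summits away from boundaries and listed starts, except at the starts of Mbnl1, Celf1, Celf2 and Celf3. Rbfox2 and Celf4 have no listed start, so their summits could be judged by distance from boundaries alone. At Celf2 the best interior region shared by the EL libraries (chr2:7079588-7079642) had percentiles of 66.4, 58.7 and 55.8 in EL replicates 1, 2 and 3, with no summit in PT. Srrm4, a regulator of neuronal microexons, stood at 58.5, 72.3 and 60.5 in EL, and Tra2a, the paralogue of Tra2b, at 24.9, 62.0 and 50.5, both without a PT summit. Rbfox2, an RBFOX gene expressed well beyond brain and muscle, had EL summits at 65.6 and 67.1 in replicates 1 and 2 and at 2.96 in replicate 3, the last in another region. Mbnl2 had a region (chr14:120288057-120288106) at 58.5, 90.2 and 84.2 in EL and none in PT there, and another found in PT replicate 3 at 28.8 and in EL replicates 2 and 3 at 16.1 and 43.8. Celf4, a neuronal member, had a region found in 4 libraries, in PT replicate 3 at 9.89 and in EL replicates 1, 2 and 3 at 83.7, 92.9 and 67.6. A second Celf4 region in the same 4 libraries stood at 29.3 in PT replicate 3 and at 27.7, 48.7 and 22.0 in EL replicates 1, 2 and 3. These percentiles overlapped, whereas its PT rank of 4265 was higher than the EL ranks of 6211, 8094 and 5501. Another Celf4 region was found in PT replicates 2 and 3 at 15.3 and 66.1 and in EL replicate 2 at 54.9. Its ranks were 3413 and 2048 in PT and 7103 in EL.

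Rbfox3, which encodes the neuronal nuclear antigen NeuN, had 1 region with higher percentiles in PT. This region 50569 bp from the lower boundary (chr11:118540273-118540385) had percentiles of 79.4, 73.8 and 83.1 in PT replicates 1, 2 and 3, against 16.3 and 54.9 in EL replicates 1 and 2 and no summit in EL replicate 3. At equal length Rbfox3 was the 1 member with an interior summit in every PT and no EL library, beside 0.567% of all genes. In full lists the gene carried an interior summit in all 6 libraries, the one in EL replicate 3 lying elsewhere in the gene with a percentile of 11.1, in a region that EL replicate 1 had at 1.37 and no PT library had. A further region stood at 11.2 in PT replicate 3 and at 70.0 in EL replicate 2, where it was the best of the gene. Rbfox1, the longest member at 1527688 bp, had summits of 19.1 and 10.5 in PT replicates 1 and 2 and of 36.9 at best in EL replicate 2, and none in the other 3 libraries. By rank the PT summits were higher, at 2337 and 3593 against 9949 in EL replicate 2. At equal length 1 PT and 0 EL libraries kept an interior summit of Rbfox1.

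The G-rich motif was looked for in the promoter windows of the members. CCTCCCCC or GGGGGAGG occurred in a window of 14 of 50 members (28.0%, 95% Wilson interval 17.5% to 41.7%), beside 10.2% of the 17492 genes. By window, 20 of 81 member windows held it (24.7%), beside 9.15% of all windows of the same length. Among the 20 members with a start summit in all 6 libraries 8 had the motif, namely Ptbp1, Srsf10, Srrm2, Mbnl1, Hnrnpd, Hnrnpf, Hnrnpl and Hnrnpul1, and among the other 30 members 6 had it. A match in any window of the gene counted, so it need not lie at the bound start. At Hnrnpf the stretch under the summits held no match. The shorter CTCCCC or GGGGAG, which every match to the longer motif contains, occurred at 60.0% of members and 38.8% of genes. The median GC content was 63.7% in member windows and 56.3% in all windows, and its part in these shares was not tested. The windows end 50 bases after the start, whereas the median region of the members lay further downstream.

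Across all genes, windows that held a summit had the motif more often. They did so in 64.8%, 62.3% and 48.7% of windows in PT replicates 1, 2 and 3, and in 53.1%, 44.1% and 55.1% in EL replicates 1, 2 and 3. Windows without a summit had it in 7.35% to 7.78% of cases in PT and in 6.45% to 7.20% in EL. The PT and EL shares overlapped for windows with a summit, and for windows without one each PT share was higher than each EL share. These shares come from full lists, which are longer in each EL library, and the part of list length was not tested.

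**Figure D5:**
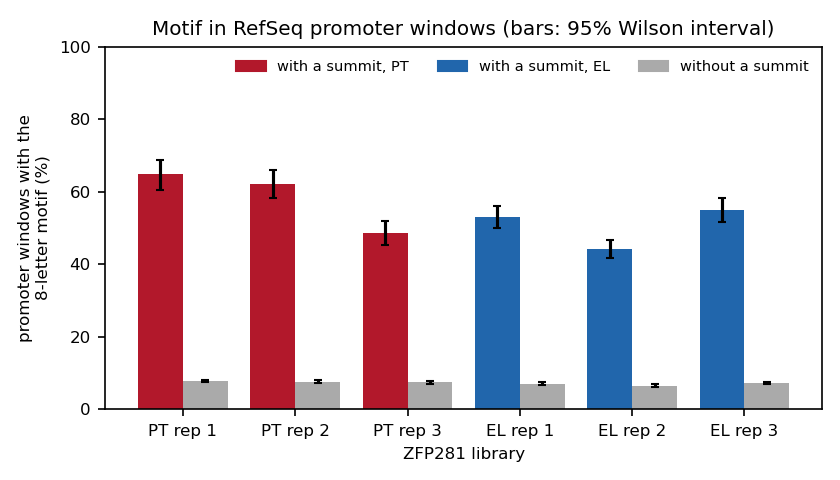
Percent of all RefSeq promoter windows with CCTCCCCC or GGGGGAGG, for windows with a ZFP281 summit (red PT, blue EL) and without one (grey), per library; bars show 95% Wilson intervals. Windows with a summit lie between 44.1% and 64.8% and windows without one between 6.45% and 7.78%.

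Other genes of the splicing machinery were counted at boundaries in the same way. Of 81 such genes in 4 lists, 16, 19 and 21 had a boundary summit in the PT libraries and 26, 37 and 24 in the EL libraries, or 23.1% in PT and 35.8% in EL on average, beside 8.14% and 15.3% of all genes. At equal length the counts were 16, 17 and 15 in PT and 15, 14 and 17 in EL, beside means of 5.91% and 6.0% of all genes. In all 6 libraries 15 were bound, a class that holds 4.39% of all genes. Of 38 other RNA-binding regulators 10 were in that class, led by the helicase gene Ddx5 (percentiles of 97.6, 95.7 and 98.4 in PT and 99.0, 99.5 and 99.1 in EL), Ewsr1, Rbm25 and Qk. Of 17 genes of the U1 and U2 particles and the 3′ splice site 3 were bound in all 6 libraries (Sf1, U2af2 and Snrnp70). Of 9 SR protein kinase genes, which phosphorylate SR proteins, 0 were bound in all 6 and Dyrk1a and Clk2 in 5. A total of 42 of the 81 genes had no boundary summit in any library, a class that holds 76.9% of all genes. The difference between the 4 lists was not tested.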

How the data were processed

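Per the labels' protocols, DNA bound by ZFP281 was sequenced in read pairs (150 bp). The submitters' processing notes name build mm10, Bowtie2 2.3.4.3 and Picard. Which peak caller was used, and whether it drew on the inputs, is not given in the sources used here. Every library has a list of its own, in which the authors deposited summits with a score. Every deposited score lay above 1.30, so it was read as a −log10 q-value. That unit comes from the values and not from a label, and the score was used to rank and filter summits within a list.

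Genes, boundaries and starts came from RefSeq tables of the same build (GRCm38.p6 for the promoter windows), which give strand for listed starts only. Coordinates count from 1. A region joins summits, of whichever library, that follow each other within 200 bp. A gene was counted in a library when a summit lay within 1 kb of either boundary, within 1 kb of a listed start, or inside it over 1 kb from both boundaries. A summit counted for every gene in reach. Ranks were compared by the exact permutation test of 3 against 3 libraries (20 relabellings), adjusted by Benjamini-Hochberg over all genes compared. No test was run on a list of genes. Members, lists and motif were chosen with earlier results of these data known.

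Named were members with a boundary summit, or an interior one, in at least 3 libraries, and up to 4 genes of each other splicing list. Some of the genes and one list that this rule covers are not reported here. Members named beyond this, and the listed starts and joint counts, were chosen after their values were seen. Alternatives were scores of at least 5 and 10, equal list lengths, windows of 500 bp and 5 kb, starts alone, each library left out, whole gene bodies, a shorter motif and a replicate block. Counting steps were tested on simulated lists. Python 3.11.15, pandas 2.3.3, numpy 2.4.6 and scipy 1.17.1 were used.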

Additional observations from a re-analysis of the deposited data

How the results depend on the processing

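Of 107 values recomputed under another setting, 88 stayed within 1.5 times the reported one and 19 did not. Some of the 88 could not move, such as the EL mean when a PT library was left out, or the reverse. The tally is thus no measure of stability. A score of at least 5 put 2 members (Hnrnpa0 and Hnrnph2) in the EL-only boundary class, against 0 as reported. That class holds 1.94% of all genes without a score filter. At 500 bp the mean number of members bound at a boundary was 10.3 in PT and 14.0 in EL, 7 members were bound in all 6 libraries, and EL ranks were higher at 2. At 5 kb 21 members were bound in all 6 and 1 (Tra2a) in EL only. By start alone 20 were bound in all 6 and 1 (Hnrnpu) in PT only, beside 5.0% and 0.0343% of genes with a listed start. With each library left out in turn, the EL-only class held 0 to 2 members: 2 without PT replicate 3 (Hnrnpa0 and Hnrnph2) and 2 without EL replicate 3 (Ptbp3 and Hnrnpll). PT ranks were higher at 3 to 5 members, the 5 arising without EL replicate 3, which added Ptbp1 and Hnrnpab. With same-numbered libraries as pairs, a replicate block, PT ranks were higher at the same 5 and EL ranks at 5. Genes without overlap across all 6 libraries cannot overlap with a library left out or in pairs. Under these settings the rank counts could only stay or rise. For the score, window, left-out and paired settings the share of all genes is not given. Their counts thus have no background under the same setting. Deviations of same-numbered libraries had correlations of 0.00324, -0.00737 and -0.0221 for replicates 1, 2 and 3. These values show no pairing, but they cannot exclude that same-numbered libraries were handled together. Interior means were 12.0 in EL at equal length, 27.7 in PT and 38.0 in EL anywhere in the gene, and 5.0 in PT and 13.0 in EL also away from listed starts, a setting added after seeing the data. The shorter motif gave 60.0% of members, against 28.0%. The cause of these moves was not tested, beyond the narrower or wider window and the shorter lists that define them.

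Read depth is unknown, so a summit missing from a PT or EL list was not called in that list, and binding is not shown to be absent. Without exons or a genome, exon and intron positions were not analysed.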
